A study of Mus musculus with 4 samples.

Results

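The genes described here encode 7 inhibitors of proteases: Slpi, a secreted inhibitor of the whey acidic protein (WAP, or WFDC) family, the serpins Serpinb2, Serpinb6a, Serpinb8 and Serpinb9, and the cystatins Cst3 and Cstb. They were taken by symbol from the 53139 loci of the authors' gene table, and each was found in 1 locus. RNA was sequenced from cultured mouse macrophages derived from MCA fibrosarcoma tumours (line 9609 parent, genotype WT in every sample) that had received exosomes of 1 of 2 kinds: those labelled MEK1-hi in 2 samples, and those labelled MEK1-low, with GFP added to the label, in 2 samples. Exosomes are small vesicles that cells release, and MEK1 is the kinase that phosphorylates ERK. The question asked is whether exosomes rich in MEK1 leave macrophages with other transcript levels than exosomes poor in it. Since the GFP mark goes with the MEK1-low exosomes, MEK1 content and that mark cannot be told apart. No untreated macrophages were among the 4 samples, and it is not labelled whether replicates were separate cultures or separate animals.

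Protease inhibitors set how far the proteases made by macrophages and neighbouring leukocytes can act. Slpi blocks serine proteases of neutrophils such as elastase and cathepsin G, and in macrophages it is known as a gene induced by bacterial endotoxin whose product dampens inflammatory signalling. Serpins trap serine proteases by a suicide mechanism in which the cleaved inhibitor stays bound to the enzyme; those of clade B, to which these 4 belong, act mostly inside cells. Cystatins plug the active site of cysteine proteases such as cathepsins B, L and S, with Cst3 secreted and Cstb kept in the cytosol and nucleus.

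Each level below is the authors' value for a group in FPKM (fragments counted on a transcript, divided by its length and by the library's size), and the table holds 1 such value per group. No spread between samples could therefore be given, and the depth of each sample is unknown. A gene was called where the q-value of the authors' Cuffdiff test, in the authors' deposited table, was under 0.05. Such p-values measure only how these samples vary, and part or all of that variation may be technical. Fold changes are MEK1-hi over MEK1-low.

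Slpi was the gene among the 7 that passed the test, and it was lower after MEK1-hi exosomes. The Slpi locus (chromosome 2, 164354070 to 164389095, minus strand, mm10) stood at 7.80 FPKM with MEK1-hi exosomes, against 24.2 FPKM with MEK1-low exosomes. This is a 3.11-fold lower level, or -1.64 on the log2 scale (p = 5e-05, q = 0.00349 in the authors' deposited table). With a pseudocount of 10 FPKM added to both values, the log2 fold change was -0.94. In bulk RNA, fewer cells of a type and less RNA per cell cannot be told apart. The remaining 6 genes did not pass the test. Of the 7, 1 was called lower with MEK1-hi exosomes and 0 higher. Among all 12648 loci tested, 2.44% were called, 1.69% lower and 0.751% higher.

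The size of the Slpi difference was uncommon in this table. Of the 11777 tested loci that reached 1 FPKM in a group and were above 0 in both, 56 had a lower fold change. Among the called loci, 26 had a fold change at or below that of Slpi, itself included. In order of level among the 12648 tested loci, Slpi took place 7390 with MEK1-hi exosomes and place 3750 with MEK1-low exosomes. Its p-value was the smallest the deposited table holds. It was that of 181 loci, Slpi included, so it does not rank Slpi among them.

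**Figure D1:**
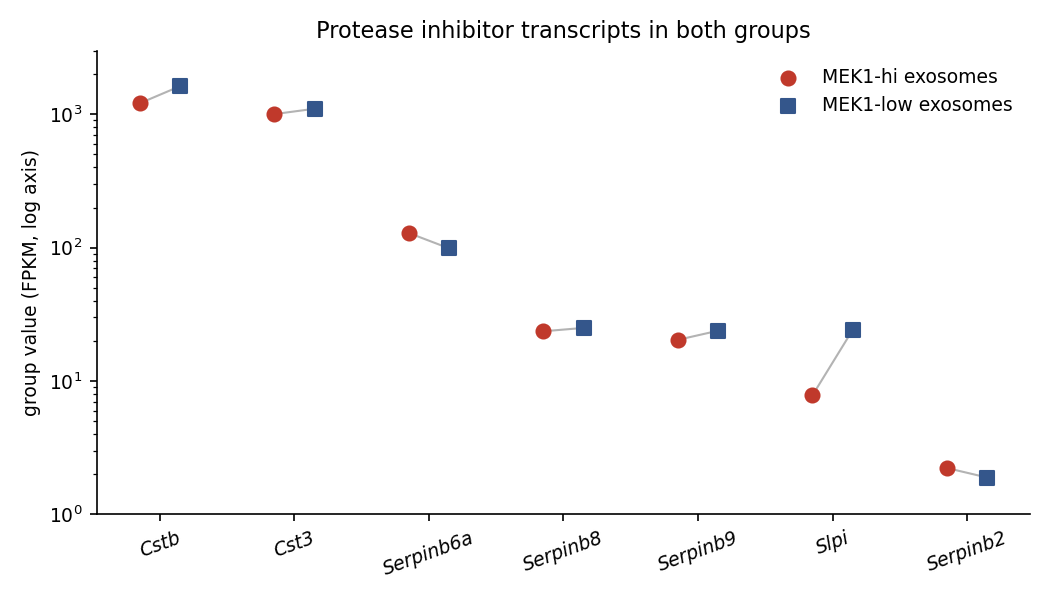
Group value of each inhibitor gene in FPKM on a log axis, with MEK1-hi exosomes (circles) and MEK1-low exosomes (squares), 1 value per group and no error bars since no values per sample were used. Slpi stands at 7.80 against 24.2 FPKM, the one called difference of the 7.

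The value for Slpi comes from a locus that also holds the microRNA gene Mir7678. The hairpin of 71 bases (chromosome 2, 164354313 to 164354383, minus strand) lies at the downstream end of intron 3 of transcript Slpi-201, which has 4 exons with 876 bases in all. Of the hairpin, 70 bases lie in the intron and 1 base is also the first base of exon 4. Reads of both genes were joined in the table, so no separate level of Mir7678 or of Slpi can be given. The values and the call given for Slpi are those of the joined locus. GENCODE M21 lists 3 Slpi transcripts, and one of them, Slpi-203, starts far upstream and gives the gene its span of 35026 bases. The hairpin is shown because it is what the joined locus adds to Slpi, with the base shared with the exon in capitals (RefSeq, GRCm38.p6, 5′ to 3′).
Mir7678 hairpin: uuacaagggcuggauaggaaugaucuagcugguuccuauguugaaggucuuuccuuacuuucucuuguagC

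**Figure D2:**
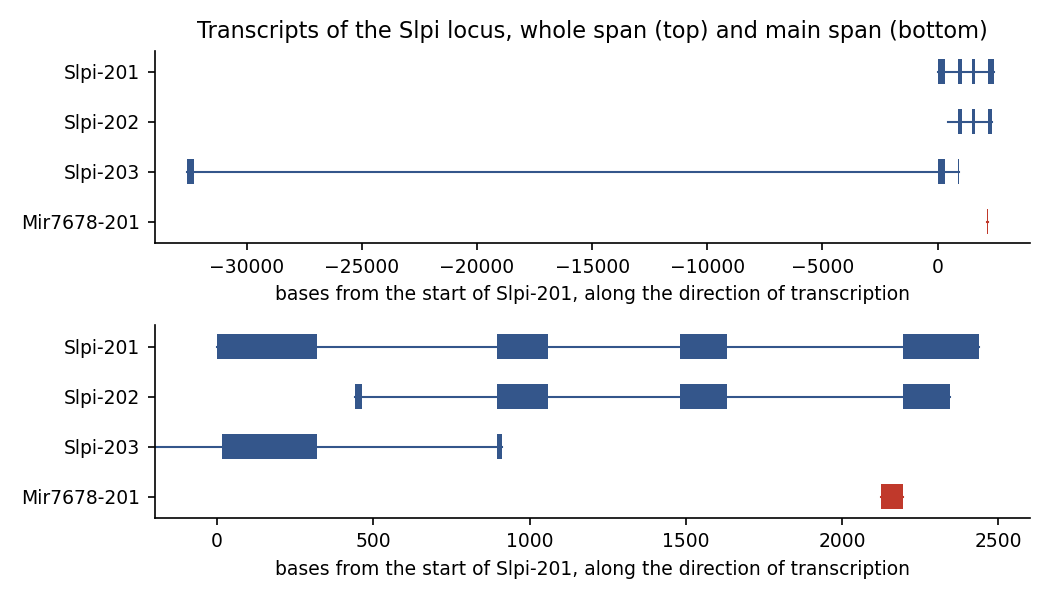
Annotated transcripts of the Slpi locus, drawn to scale as bases from the start of Slpi-201 along the direction of transcription, with boxes for exons and lines for introns. The upper panel shows the whole span, set by the far upstream start of Slpi-203, and the lower panel the main span, where the 71 bases of Mir7678 end at the first base of exon 4.

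The nearest tested loci on either side of Slpi were not called; loci that the authors' test did not cover, such as Wfdc15b, lie between Slpi and Stk4. Sdc4, which encodes the cell surface proteoglycan syndecan 4, lies 35152 bases from the far upstream end of Slpi that Slpi-203 sets. From the start of Slpi-201 it is farther away. Sdc4 had 37.1 FPKM with MEK1-hi exosomes and 33.0 FPKM with MEK1-low exosomes (q = 0.999 in the authors' deposited table). Stk4, a kinase gene of the Hippo pathway 198546 bases away on the other side, had 22.3 and 23.7 FPKM with MEK1-hi and MEK1-low exosomes (q = 0.999 in the authors' deposited table).

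A second gene of the WAP family was called, in the opposite direction. Wfdc17 (chromosome 11, 83703991 to 83706268, plus strand) encodes a small secreted protein with a WAP domain made by activated macrophages. It stood at 227 FPKM with MEK1-hi exosomes, against 155 FPKM with MEK1-low exosomes. The log2 fold change was 0.55 (p = 0.00035, q = 0.0181 in the authors' deposited table). Over all tested loci, 0.751% were called higher and 1.69% lower. Slpi and Wfdc17 were the 2 of 19 WAP family loci that the authors' test covered. Of the others, 13 were listed at 0 in both groups, and the highest value was 0.555 FPKM, that of Wfdc18 with MEK1-low exosomes. The level of Wfdc17 was 29.1 times that of Slpi with MEK1-hi exosomes and 6.38 times with MEK1-low exosomes, both per length of transcript. The nearest tested loci on either side of Wfdc17, the chemokine gene Ccl4 and Heatr6, were not called, each with q = 0.999 in the authors' deposited table.

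The stretches around the start sites of these 2 WAP family genes are printed because theirs were the called differences, in opposite directions. Each runs from 250 bases before to 50 bases after the RefSeq start site, for Slpi that of transcript Slpi-201 (GRCm38.p6, 5′ to 3′ on the gene's strand), chr2:164356458-164356757 on the minus strand for Slpi and chr11:83703806-83704105 on the plus strand for Wfdc17. Capitals mark matches on either strand to any of 6 motifs. These were the TATA box (TATAAA), AP-1 (TGANTCA), NF-kB (GGG and CC with any 5 bases between them), the PU.1 core (GAGGAA), the C/EBP core (TTGCAA) and the E-box (CACGTG).
Slpi: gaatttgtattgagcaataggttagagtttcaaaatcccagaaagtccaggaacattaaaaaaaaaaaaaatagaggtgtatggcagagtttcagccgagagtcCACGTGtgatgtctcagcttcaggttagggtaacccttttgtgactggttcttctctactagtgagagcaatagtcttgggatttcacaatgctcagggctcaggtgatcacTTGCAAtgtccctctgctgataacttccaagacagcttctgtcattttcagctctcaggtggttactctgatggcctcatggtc
Wfdc17: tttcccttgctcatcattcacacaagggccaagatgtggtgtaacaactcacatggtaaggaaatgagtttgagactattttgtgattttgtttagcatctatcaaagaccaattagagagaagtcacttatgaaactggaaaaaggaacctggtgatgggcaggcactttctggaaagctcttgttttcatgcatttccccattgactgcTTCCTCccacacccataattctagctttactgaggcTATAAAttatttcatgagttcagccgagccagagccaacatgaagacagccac

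The Slpi stretch held an E-box, which begins at position -146 (counting the start site as 0), and a C/EBP core at -34. The Wfdc17 stretch held a PU.1 core at -39 on the opposite strand and the letters of a TATA box at -3. The RefSeq start site of Wfdc17 lies downstream of the GENCODE gene start given above, so these positions hold for the RefSeq start only. The 2 stretches had no motif in common, and no matches overlapped in them. Over 32851 RefSeq windows of this length, 7.15% held the E-box, 6.23% the C/EBP core, 28.3% the PU.1 core and 13.6% the TATA box, while 7.81% held AP-1 and 50.8% the loose NF-kB pattern. A match is a description of the letters and not of a bound site.

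Of the 7 inhibitor genes, 6 had such a window, and Cstb had none. Serpinb2 held AP-1 (TGAATCA) and TATA box letters at -94 and -29 in the first of its 2 overlapping windows. Serpinb8 held AP-1 (TGAGTCA) at -23 and again at 13, neither gene being called. Serpinb9 matched none of the 6 motifs. The NF-kB pattern was found for Cst3, Serpinb8 and 1 of the 2 windows of Serpinb6a, and the PU.1 core for Cst3 and the other Serpinb6a window.

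The cystatins were by far the most abundant of the 7 transcripts. Cstb (chromosome 10, 78425669 to 78427622, plus strand), the cytosolic stefin B that guards against cathepsins leaking from lysosomes, stood at 1209 FPKM with MEK1-hi exosomes and 1626 FPKM with MEK1-low exosomes. Those values were the 49th and 36th highest among tested loci. The log2 fold change was -0.43, which did not pass over all loci (p = 0.0044, q = 0.126 in the authors' deposited table). At an unadjusted p under 0.05, 2 of the 7 genes, Slpi and Cstb, were lower and 0 higher, beside 5.12% of all tested loci lower and 3.53% higher.

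Cst3 (chromosome 2, 148871722 to 148875692, minus strand), the secreted cystatin C, stood at 1004 FPKM with MEK1-hi exosomes and 1101 FPKM with MEK1-low exosomes. These were the 65th and 59th highest levels, and the log2 fold change was -0.13 (q = 0.999 in the authors' deposited table). Of 17 cystatin and stefin loci in the table, Cst7 was the 1 further locus tested. Cst7 encodes cystatin F, an inhibitor found in endosomes and lysosomes of blood cells, and it had 1.14 FPKM with MEK1-hi exosomes and 2.63 FPKM with MEK1-low exosomes (p = 0.0103, q = 0.227 in the authors' deposited table). All 3 tested cystatins had lower values with MEK1-hi exosomes, and 0 of them were called by Cuffdiff, 2 having an unadjusted p under 0.05. Over all tested loci, values were lower in 6304 and higher in 6344. On the log2(FPKM + 1) scale, which shrinks changes of low genes, the median of the 3 cystatins was -0.43. With 3 loci, that median is the value of Cstb itself. The median of the 11804 tested loci of 1 FPKM or more was 0.00. The stefin A genes Stfa1 and Stfa3 were listed at 0 in both groups.

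**Figure D3:**
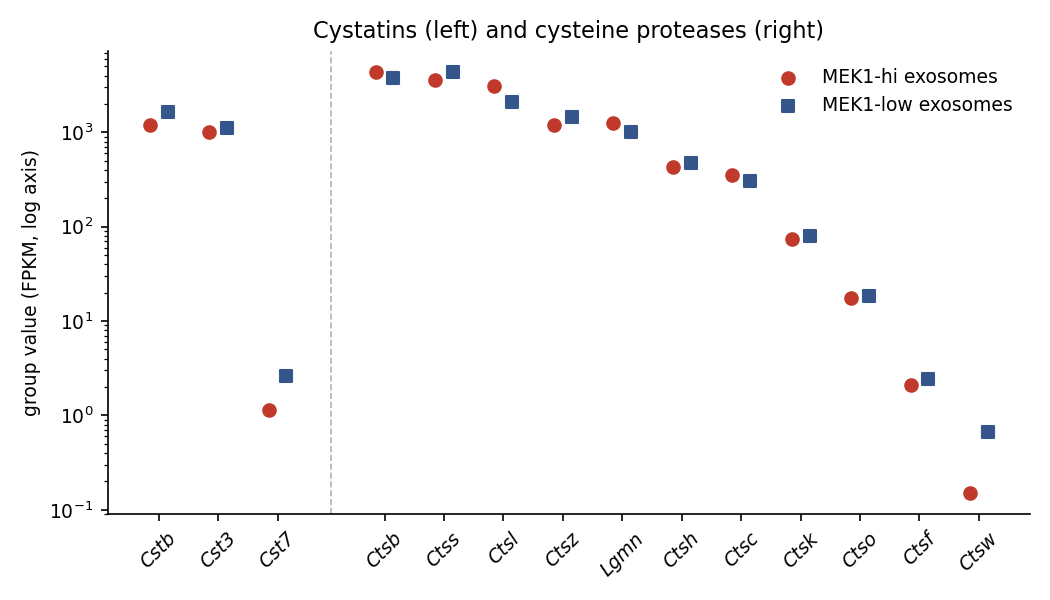
Group values in FPKM on a log axis of the 3 tested cystatins (left of the dashed line) and of the 11 cysteine proteases (right), with MEK1-hi exosomes (circles) and MEK1-low exosomes (squares). Cstb and Cst3 sit in the range of the abundant cathepsins, and the values of the proteases lie on both sides of equality.

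The cysteine proteases that cystatins inhibit had differences in both directions. Of the 11 in the list, 4 had higher and 7 lower values with MEK1-hi exosomes. Of the 11, 0 were called, beside 2.44% of all tested loci. At an unadjusted p under 0.05, 1 was higher and 0 lower, beside 3.53% higher and 5.12% lower over all tested loci. Ctsb, the gene of cathepsin B, stood at 4382 FPKM with MEK1-hi exosomes and 3732 FPKM with MEK1-low exosomes. Ctss, of cathepsin S, which trims the invariant chain of class II molecules, stood at 3552 and 4375 FPKM with MEK1-hi and MEK1-low exosomes. Ctsl, of cathepsin L, in a locus joined with Gm49230, stood at 3079 and 2119 FPKM with MEK1-hi and MEK1-low exosomes (p = 0.0109, q = 0.235 in the authors' deposited table). This list had a median of -0.07 on the log2(FPKM + 1) scale.

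Summed over genes, the cystatins came to 2214 FPKM with MEK1-hi exosomes and 2730 FPKM with MEK1-low exosomes. The same sum over the cysteine proteases was 14367 FPKM with MEK1-hi exosomes and 13578 FPKM with MEK1-low exosomes. Protease transcripts thus stood at 6.49 times the cystatin transcripts with MEK1-hi exosomes and at 4.97 times with MEK1-low exosomes. With 1 value per group these ratios have no error and were not tested. Transcript levels do not measure protein.

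The 4 serpin genes spread over a wide range of levels and none of them was called. Serpinb6a (chromosome 13, 33917918 to 34002794, minus strand), whose human counterpart inhibits cathepsin G, was the highest, with 129 FPKM with MEK1-hi exosomes and 98.8 FPKM with MEK1-low exosomes. Its log2 fold change of 0.38 did not pass (p = 0.0612, q = 0.638 in the authors' deposited table). The genes Nqo2, Ripk1 and 1110046J04Rik lie on the opposite strand within its span. The library kit kept strand, but no source used here tells whether the authors' counting used it, so the level of Serpinb6a is uncertain to that extent. Nqo2, a quinone reductase gene, stood at 18.2 and 12.1 FPKM with MEK1-hi and MEK1-low exosomes (q = 0.999 in the authors' deposited table).

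Serpinb8 (chromosome 1, 107590006 to 107610484, plus strand), known in human as an inhibitor of furin, stood at 23.6 FPKM with MEK1-hi exosomes and 25.0 FPKM with MEK1-low exosomes (q = 0.999 in the authors' deposited table). Furin itself stood at 29.6 and 30.2 FPKM with MEK1-hi and MEK1-low exosomes. Neither gene was called. Serpinb9 (chromosome 13, 33003250 to 33017957, plus strand) inhibits granzyme B and protects cells that make or meet it. It stood at 20.3 FPKM with MEK1-hi exosomes and 23.8 FPKM with MEK1-low exosomes, which is -0.23 on the log2 scale (p = 0.132, q = 0.861 in the authors' deposited table). Gzmb, the gene of granzyme B, was listed at 0 in both groups. Serpinb6a and Serpinb9 have close paralogs on chromosome 13 with which reads may be shared.

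Serpinb2 (chromosome 1, 107511423 to 107535478, plus strand), the plasminogen activator inhibitor PAI-2, was the lowest of the 7. The locus stood at 2.22 FPKM with MEK1-hi exosomes and 1.88 FPKM with MEK1-low exosomes (p = 0.408, q = 0.999 in the authors' deposited table). It is joined with Serpinb10, which overlaps it on the same strand, so the level is that of both genes. Of its target proteases, Plau, the gene of urokinase, was abundant, with 499 FPKM with MEK1-hi exosomes and 365 FPKM with MEK1-low exosomes. The log2 fold change of Plau was 0.45, which did not pass over all loci (p = 0.00335, q = 0.104 in the authors' deposited table). Plat, the tissue-type activator, stood at 0.635 and 0.848 FPKM with MEK1-hi and MEK1-low exosomes.

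In the urokinase system, 6 of 8 loci were tested and 0 were called, with 1 higher and 1 lower at an unadjusted p under 0.05. Over all tested loci, 2.44% were called, and at that unadjusted p 3.53% were higher and 5.12% lower. The urokinase receptor gene Plaur stood at 130.5 FPKM with MEK1-hi exosomes and 129 FPKM with MEK1-low exosomes. Lrp1, whose product clears complexes of protease and inhibitor, stood at 362 and 285 FPKM with MEK1-hi and MEK1-low exosomes (q = 0.983 in the authors' deposited table). This list had a median of 0.16 on the log2(FPKM + 1) scale.

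**Figure D4:**
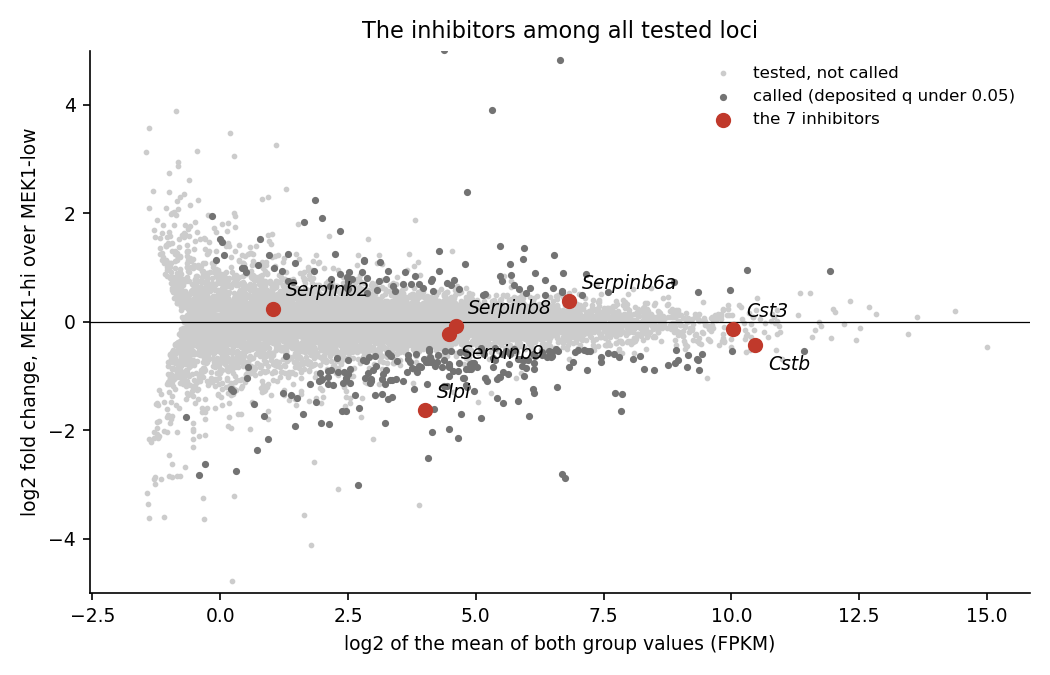
Log2 fold change (MEK1-hi over MEK1-low) against the log2 mean of both group values in FPKM, for 12602 tested loci above 0 in both groups (4 more lie beyond the axis); dark points are called. Slpi lies at -1.64 among the called loci, while the other 6 inhibitor genes lie inside the cloud of loci that were not called.

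Across the whole serpin family, 11 of 64 loci were tested, the 4 genes above among them. By Cuffdiff, 0 were called, beside 2.44% of all tested loci. Of the 11, values were higher in 5 and lower in 6. Taking p without adjustment under 0.05, 4 lower ones and 0 higher ones remained, beside 5.12% lower and 3.53% higher over all tested loci. Serpinb1b, Serpinh1 and Serpinb12 were among the 4 lower serpins. Serpinb1b, of the family that inhibits neutrophil proteases, stood at 4.32 FPKM with MEK1-hi exosomes and 6.82 FPKM with MEK1-low exosomes (p = 0.00405, q = 0.118 in the authors' deposited table). Serpinh1, which encodes the collagen chaperone HSP47 rather than a protease inhibitor, stood at 9.63 and 13.4 FPKM with MEK1-hi and MEK1-low exosomes (p = 0.0076, q = 0.183 in the authors' deposited table). Serpinb12 stood at 2.95 and 4.45 FPKM with MEK1-hi and MEK1-low exosomes (p = 0.0219, q = 0.359 in the authors' deposited table). Serpins had a median of -0.08 on the log2(FPKM + 1) scale. Of the serpin loci not tested, none exceeded 0.583 FPKM, and 41 were listed at 0 in both groups. The 8 tested clade B serpin loci summed to 199 FPKM with MEK1-hi exosomes and 176 FPKM with MEK1-low exosomes, most of it from Serpinb6a.

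**Figure D5:**
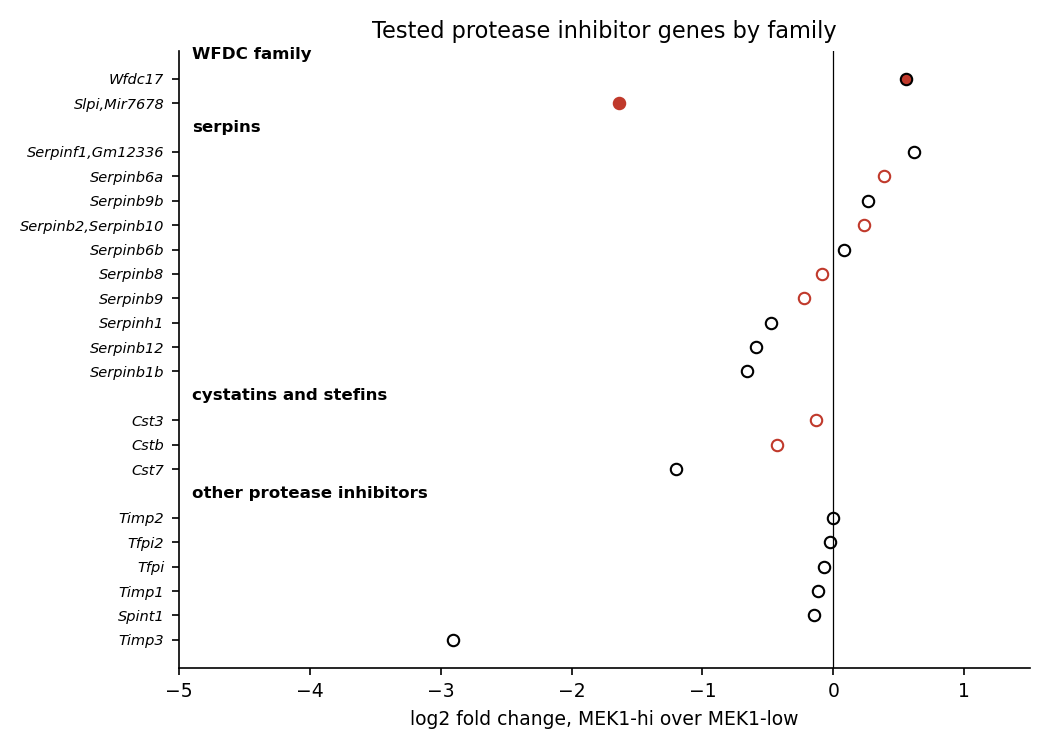
Log2 fold change (MEK1-hi over MEK1-low) of tested loci of the WAP (WFDC) family, the serpins (1 not shown), the cystatins and other protease inhibitors; filled points are called, and red outlines mark the 7 inhibitor genes. Slpi at -1.64 and Wfdc17 at 0.55 are the filled points, and Timp3, far to the left, had under 1 FPKM in both groups.

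Inhibitors outside these families gave 0 called loci of 6 tested, with 0 higher and 1 lower at an unadjusted p under 0.05. Over all tested loci, 2.44% were called, and at that unadjusted p 3.53% were higher and 5.12% lower. Timp2, an inhibitor of matrix metalloproteinases, stood at 151 FPKM in both groups, at 151.3 with MEK1-hi and 151.4 with MEK1-low exosomes. Spint1, an inhibitor of serine proteases of the cell surface, stood at 52.7 and 58.4 FPKM with MEK1-hi and MEK1-low exosomes, and Timp1 at 17.6 and 19.1 FPKM with MEK1-hi and MEK1-low exosomes. All 6 had lower values with MEK1-hi exosomes, most by little, while over all tested loci 6304 were lower and 6344 higher. The median of the 4 of these inhibitors that reached 1 FPKM was -0.09 on the log2(FPKM + 1) scale. Timp3, with 0.0963 and 0.723 FPKM with MEK1-hi and MEK1-low exosomes, was the locus at an unadjusted p under 0.05 (p = 0.00795, q = 0.189 in the authors' deposited table).

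Among the serine proteases, Elane, Ctsg and Prtn3, the genes of neutrophil elastase, cathepsin G and proteinase 3, were listed at 0 in both groups. Of 18 serine proteases in the list, 10 were listed at 0 in both groups and 3 were tested. Of the 3, 0 were called, and Plau was higher at an unadjusted p under 0.05. Over all tested loci, 2.44% were called, and at that unadjusted p 3.53% were higher and 5.12% lower. Grn, the gene of progranulin, which Slpi protects from cleavage by elastase, stood at 899.9 FPKM with MEK1-hi exosomes and 810 FPKM with MEK1-low exosomes (q = 0.999 in the authors' deposited table). Sort1, a progranulin receptor in a locus joined with Gm12525, stood at 28.0 and 29.6 FPKM with MEK1-hi and MEK1-low exosomes. Psap, of prosaposin, a binding partner of progranulin, stood at 7263 and 5979 FPKM with MEK1-hi and MEK1-low exosomes. None of these 3 was called, and 0 had an unadjusted p under 0.05.

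Slpi is also made by neutrophils and epithelia, so the markers of other cells were read beside it. All 8 macrophage markers were tested and ranged from 48.0 to 13148 FPKM with MEK1-hi exosomes and from 47.5 to 12303 FPKM with MEK1-low exosomes, and 1 of them, Cd14, was called lower (136 and 213 FPKM with MEK1-hi and MEK1-low exosomes). Of 10 neutrophil markers, 2 were tested and 0 called; they summed to 53.6 FPKM with MEK1-hi exosomes and 73.6 FPKM with MEK1-low exosomes, nearly all from Csf3r and S100a8. S100a8 stood at 22.6 and 35.5 FPKM with MEK1-hi and MEK1-low exosomes (q = 0.118 in the authors' deposited table), while S100a9, Ly6g, Mpo, Elane and Retnlg were listed at 0 in both groups. Epithelial markers summed to 4.92 FPKM with MEK1-hi exosomes and 6.89 FPKM with MEK1-low exosomes, most of it from Krt18, with Epcam at 0.0372 and 0.0203 FPKM with MEK1-hi and MEK1-low exosomes. Fibroblast or fibrosarcoma markers summed to 5.38 and 6.64 FPKM with MEK1-hi and MEK1-low exosomes, and no marker of the T and NK, B, mast or dendritic lists was called. Over all tested loci, 1.69% were called lower and 0.751% higher. The part of the marker differences in the Slpi result was not tested.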

How the data were processed

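Stranded mRNA libraries were made from 750 ng of TRIzol-extracted RNA and sequenced as paired reads of 100 bases, per the labels' protocols. FastQC 0.73, TopHat, Cufflinks, Cuffdiff and build mm10 are named in the submitters' processing notes, without settings. The single deposited table gives, per the file headers, 1 FPKM value per group, with the authors' test statistic (a score), p-value and q-value for each locus. Its columns GFP exo and MEK1 exo were matched to MEK1-low and MEK1-hi through the treatment labels.

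Fold changes were computed here from the deposited FPKM values. The deposited log2 column was not used, since spreadsheet error text stands in some of its cells. Adjusting the deposited p-values again by Benjamini and Hochberg over the 12648 loci tested gave the deposited q-values within 5.19e-07. Symbols were found for 99.5% of 55029 gene identifiers. Positions are from GENCODE M21 (the same build), counted from 1. A locus can join several genes, as 871 of the tested loci do. List medians used a pseudocount of 1 and tested loci whose larger value was 1 FPKM or more. Calculations used Python 3.11.15, pandas 2.3.3 and statsmodels 0.14.6. Only the Benjamini and Hochberg adjustment and a median log2 fold change were checked on simulated data.

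The genes and lists were chosen with earlier results of these data known. Named were the 7 genes, every called member of each list and the 3 most abundant members of each; neighbours were the nearest tested loci on each side, passing over loci not tested, and overlapping genes were taken by position. The other list and marker genes given with values were named after their values were seen. The values of 1 serpin locus are not reported here, though counts and medians include it. No genes of like pattern are named, as 2 group values hold no pattern.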

Additional observations from a re-analysis of the deposited data

How the results depend on the processing

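Leaving out a replicate was not run, because no values of single samples were used. No paired analysis was possible because the table holds 1 value per group. All 7 genes kept their side of the threshold under q-value thresholds of 0.01 and 0.10 and an adjustment over loci of at least 1 FPKM. All 7 fold changes kept their direction under scaling by the FPKM total (a shift of 0.04 in log2) or by the median (0.00) and under pseudocounts of 0.1, 1 and 10, settings in which the deposited test could not be rerun. The log2 fold change of Slpi was -0.94 with a pseudocount of 10, against -1.64 with none. With joined loci left out, Slpi and Serpinb2 have no value by construction, so 0 of the inhibitor genes were called lower. The count of all loci called higher was 59 at a q-value threshold of 0.01 and 125 at 0.10, against 95 at 0.05. The count of all loci called lower was 155 at 0.01 and 268 at 0.10, against 214 at 0.05. Wfdc17, with q = 0.0181 in the authors' deposited table, is called at 0.05 and not at 0.01. List medians that moved by over 0.1 were those of the serpins, at -0.22 both over members of at least 5 FPKM and without joined loci, of the cystatins, at -0.18 with a pseudocount of 10, and of the urokinase system, at 0.040 with a pseudocount of 10. Each of these medians kept its sign. For the cystatins, no median over members of at least 5 FPKM was taken. The depth of each sample is unknown, which limits the low genes most.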
